A study of Saccharomyces cerevisiae with 4 samples.

Results

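The messenger RNAs described here encode 60 protein components of the spliceosome of budding yeast (Saccharomyces cerevisiae). They were chosen by gene name from a list of splicing factors and stand among 5583 named genes on the arrays. The choice applied no rule to measured values, but it was made with earlier results of these data known. The data are 4 two-channel arrays of 1 group. Each array set RNA precipitated together with Mex67, the receptor that carries messenger RNA out of the nucleus, against RNA from a control precipitation. Mex67 carried the immunoglobulin-binding zz tag, and the control was the zz tag by itself. The sources used here give neither strain nor growth conditions, dyes or how the tagged proteins were made, and no label states whether cultures or precipitations differed between arrays. Each title carries a date of its own without naming the step it marks, so the spread between arrays may be technical. Replicate 1 was measured on a first platform and replicates 2, 3 and 4 on a second. The zzMex67 precipitate is in channel 1 of replicates 1, 3 and 4 and in channel 2 of replicate 2, whose sign was therefore turned. Whether the deposited ratio of replicate 2 had already been turned is not stated, so results that rest on it are also given with its sign as deposited.

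All values below are log2 ratios after subtraction of the median over the genes of the array, so 0 is the middle gene of an array and 1 is 2-fold above it. The direction is not settled by the files. The titles name zzMex67 first and channel 1 holds its RNA on 3 arrays, so a higher ratio probably stands for more of an mRNA in that precipitate, but ratios are described here as higher or lower. No array of total RNA is used here, so the abundance of an mRNA in the cells and the degree to which it came down with Mex67 cannot be told apart.

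The spliceosome removes introns from nuclear pre-mRNA. It is built anew on each intron from small nuclear ribonucleoprotein particles (snRNPs), in which a small nuclear RNA is held by a ring of Sm or Lsm proteins and joined by proteins specific to that particle. ATP-driven helicases, most of them named PRP for pre-mRNA processing, then remodel it step by step, and the Prp19 complex stabilises its catalytic form. The mRNAs of these proteins are themselves exported and translated like other mRNAs. The 60 genes comprise 7 Sm and 7 Lsm genes, 27 genes of snRNP-specific proteins and 6 PRP helicase genes. A further 9 are genes of the Prp19 complex and its partners, and 4 are genes of branch point and second-step factors. The 27 comprise 8 of U1, 7 of U2, and 12 of the U6, U4/U6 and U5 particles. These 12 are called tri-snRNP genes here, after the particle that U4/U6 and U5 form together.

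The spliceosome mRNAs lay on both sides of the array median on every array. Their median was -0.41 on replicate 1 (48 genes, SD over genes 1.62), 0.41 on replicate 2 (6 genes, SD 1.00), -0.32 on replicate 3 (20 genes, SD 2.03) and -0.50 on replicate 4 (20 genes, SD 1.47), where all genes have a median of 0 by construction. The mean of the 4 medians was -0.20 ± 0.42 (SD, n = 4 arrays), which is smaller than the spread between arrays. With replicate 2 as deposited all 4 medians were below 0 and their mean was -0.41 ± 0.077 (SD, n = 4 arrays), larger than that spread, and without replicate 2 it was -0.41 ± 0.094 (SD, n = 3 arrays). With neighbouring spots centred together, as described below, the mean was -0.01 ± 0.38 (SD, n = 4 arrays). Of the 94 member values, 41 lay above and 53 below the array median. With replicate 2 as deposited these counts were 37 and 57.

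The genes at 2-fold or more were counted beside those of all genes of each array. On replicate 1, 6 of the 48 genes (12.5%) were 2-fold or more higher and 14 (29.2%) lower, where 26.0% and 21.1% of all genes were. On replicate 2, 1 of 6 was higher and 0 were lower, beside 27.7% and 29.2% of all genes. On replicate 3, 4 of 20 were higher and 6 lower, beside 28.9% and 21.9%. On replicate 4, 5 of 20 were higher and 4 lower, beside 22.5% and 17.4%. On replicate 1 fewer members than genes in general were higher and more were lower, and on the second platform each count covers 6 members or fewer. The replicate 1 counts depend on place on the array. With neighbouring spots centred together, as described below, MUD1, SNU56, PRP3, PRP6, PRP9, PRP11 and SYF1 were no longer 2-fold lower there. SNU114 and PRP24 then became 2-fold lower, and PRP42 2-fold higher. Fewer members were thus 2-fold lower on replicate 1 than before this centring. The share of all genes was not counted with spots centred in this way, so the contrast with genes in general on replicate 1 is not established.

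**Figure D1:**
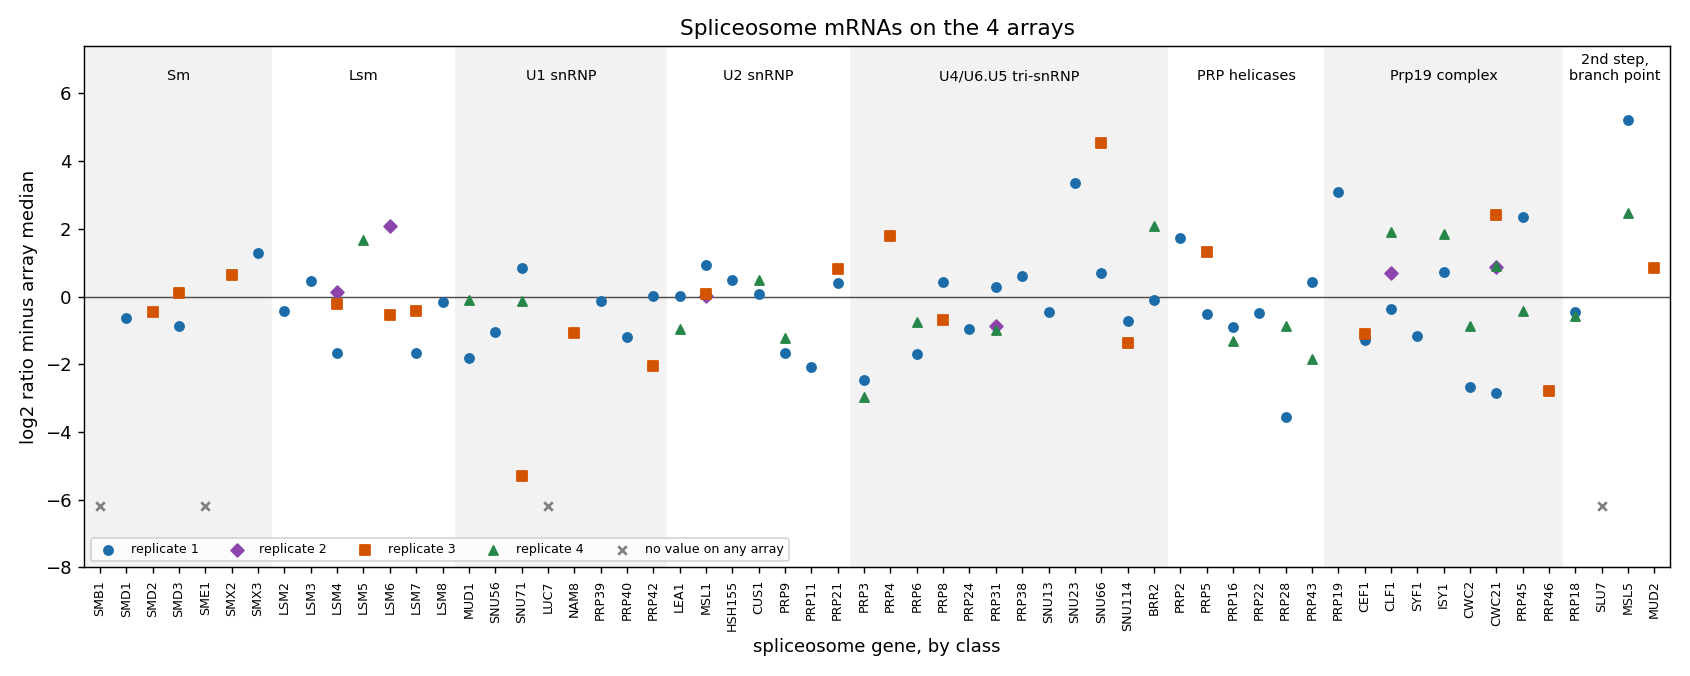
Log2 ratio minus the array median (vertical axis) for each of the 60 spliceosome genes (horizontal axis, by class), with 1 mark for each array that had a value; crosses mark the 4 genes with none. Values of both signs occur in every class, and MSL5, SNU66 and SNU71 reach the largest sizes.

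Many spots carry no value, and this shaped what could be compared. Of the 60 genes, 4 (SMB1, SME1, LUC7 and SLU7) had no value on any array, 25 had a value on 1 array, 25 on 2, 5 on 3, and 1, CWC21, on all 4. All 60 genes were printed on the first platform and 59, all but LSM3, on the second. The share of members with a value was 80.0% on replicate 1 and 10.2%, 33.9% and 33.9% on replicates 2, 3 and 4, near the 79.0%, 9.46%, 41.2% and 43.7% of all named genes. The class with the lowest share on replicate 1 was the Sm genes, with 3 of 7, while all 7 U2 genes and all 6 helicase genes had a value there.

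Whether a member had a value went with its place on the array, most clearly on replicate 3. On replicate 3, 0 of the 31 members printed among the first 6400 spots had a value and 20 of the 28 printed after them did, beside 11.8% and 70.9% of all named genes in the same parts of the array. Replicate 4 had values for 12 of the 31 and 8 of the 28, beside 51.6% and 35.7%. Replicates 3 and 4 each covered 20 members and shared only SNU71 and CWC21, which is 10% of each list, where they shared 923 genes of all, or 40.5% and 38.1% of their lists. Replicates 1 and 4 shared 19 members and replicates 1 and 3 shared 13, so a member with 2 values nearly always pairs the 2 platforms, LSM6 being the exception. Why spots lack values is not stated.

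**Figure D2:**
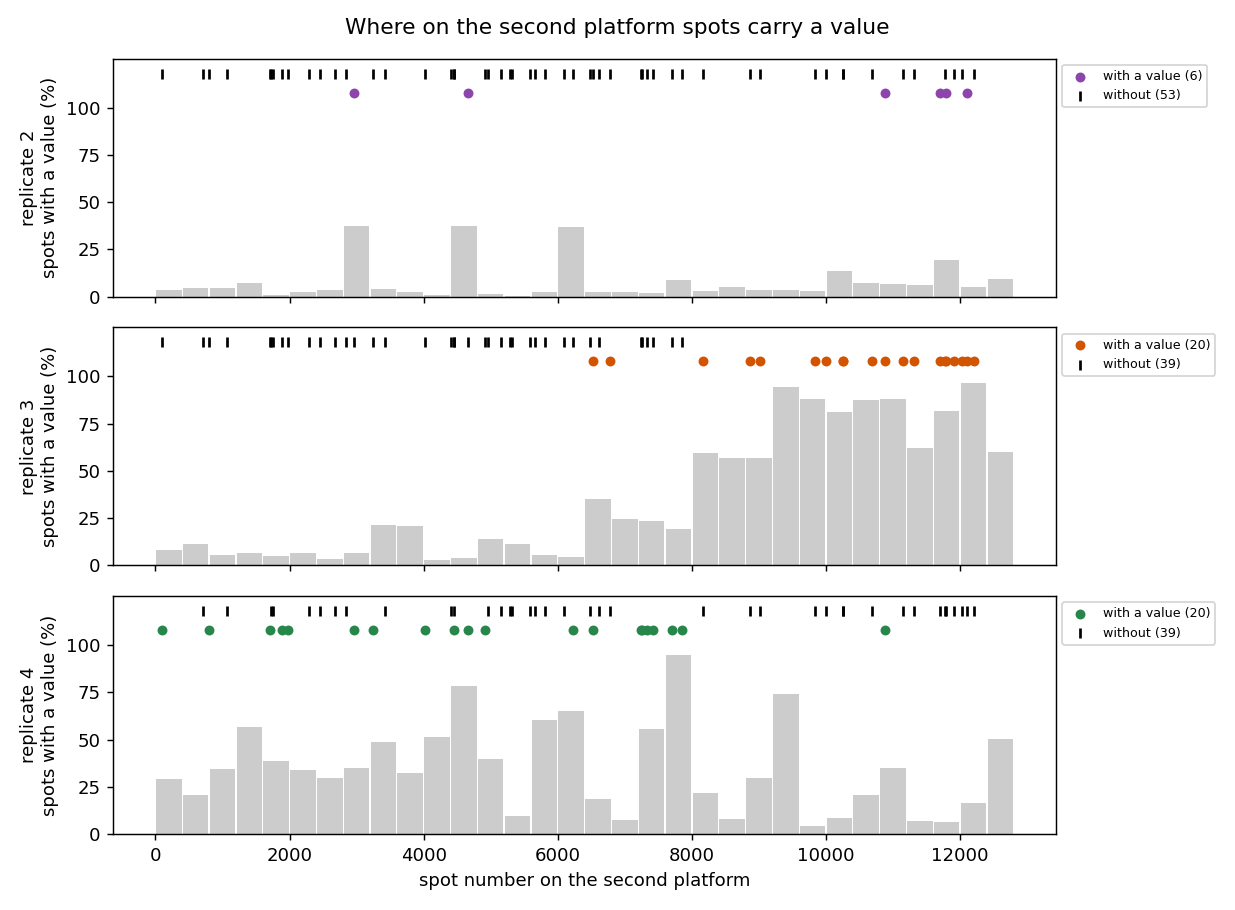
Share of spots with a value (bars, percent) in each run of 400 neighbouring spots of the second platform, against spot number, on replicates 2, 3 and 4; coloured dots are members with a value and black ticks members without. On replicate 3 all 20 members with a value lie after spot 6400.

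Local level on the array moved with the member values too. On replicate 1 the medians of the 19 full runs of 400 spots lay between -1.81 and 1.22 around the array median, and on replicate 3 those of the 26 runs with at least 20 values between -1.76 and 2.33. Each value was therefore also computed after centring every run of 400 spots, which is called run-centred here. This changed the sign of 9 of 48 members on replicate 1, 1 of 6 on replicate 2, 3 of 20 on replicate 3 and 1 of 20 on replicate 4, beside 13%, 19.1%, 24.1% and 15.1% of all genes. The median size of the change for members was 0.41, 0.73, 0.42 and 0.25 on the 4 arrays. How much of a run's level comes from the array and how much from the genes printed there was not tested.

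The Sm proteins form the ring around the U1, U2, U4 and U5 small nuclear RNAs, and their mRNAs stayed within 2.43-fold of the array median wherever they had a value. SMD1 (YGR074W) had -0.65 on replicate 1 from 2 spots with an SD of 1.62. SMD3 (YLR147C) had -0.87 on replicate 1 and 0.11 on replicate 3, and SMD2 (YLR275W) -0.45 on replicate 3. SMX2, which encodes SmG, had 0.64 on replicate 3 and SMX3, which encodes SmF, 1.28 on replicate 1. Of the 6 Sm values 3 lay above and 3 below the median, and SMB1 and SME1, for SmB and SmE, had none. No Sm gene had a value on replicates 2 or 4.

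The Lsm proteins form a related ring, Lsm2 to Lsm8, on the U6 small nuclear RNA, and most of them also serve in a cytoplasmic ring that takes part in mRNA decay. LSM4 (YER112W) had -1.67, 0.13 and -0.21 on replicates 1, 2 and 3, a mean of -0.58 ± 0.96 (SD, n = 3). LSM7 (YNL147W) had -1.66 and -0.42 on replicates 1 and 3. LSM6 (YDR378C) had 2.09 on replicate 2 and -0.55 on replicate 3. It was the highest member of replicate 2 with the sign turned and the lowest, at -2.09, as deposited, so the sign decides whether its 2 arrays lay on opposite sides. LSM5 was high at 1.68 on replicate 4, its one array, while LSM2, LSM3 and LSM8 had -0.44, 0.47 and -0.15 on replicate 1. Of the 11 Lsm values 4 lay above the median and 7 below. On replicate 3 all 3 Lsm values lay between -0.55 and -0.21, a narrow range beside the array's SD over all genes of 1.83. Run-centred, the range there was wider, with LSM4 at -1.23, LSM6 at -0.23 and LSM7 at -0.10.

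Genes of proteins specific to the U1 particle, which recognises the 5′ splice site, lay mostly below the array median. Of their 11 values, 9 were below, with medians of -0.58 on replicate 1 (6 genes), -2.05 on replicate 3 (3 genes) and -0.12 on replicate 4 (2 genes), and a mean of -0.91 ± 1.01 (SD, n = 3 arrays). PRP42 (YDR235W) had 0.02 and -2.05 on replicates 1 and 3, NAM8 (YHR086W) -1.09 on replicate 3, and PRP40 (YKL012W) and SNU56 (YDR240C) -1.20 and -1.03 on replicate 1. MUD1 (YBR119W) had -1.82 and -0.10 on replicates 1 and 4, and PRP39 -0.12 on replicate 1. SNU71 (YGR013W) had 0.85, -5.30 and -0.13 on replicates 1, 3 and 4. Its value on replicate 3 was the 16th lowest of 2280 genes and is the mean of 2 neighbouring spots at -8.49 and -2.10, so it rests largely on 1 spot. Run-centred, the U1 medians were -0.16, -2.08 and -0.19, with 8 of 11 values below. All 3 U1 values on replicate 3 were at 2-fold or more below the array median, while both on replicate 4 were close to it.

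The U2 particle binds the branch point, and its mRNAs lay on both sides of the array median, from -2.09 to 0.94. The medians were 0.09, 0.03, 0.45 and -0.97 on replicates 1 to 4 (7, 1, 2 and 3 genes), a mean of -0.10 ± 0.61 (SD, n = 4 arrays). MSL1 (YIR009W) had 0.94, 0.03 and 0.07 on replicates 1, 2 and 3, a mean of 0.35 ± 0.52 (SD, n = 3), with replicates 2 and 3 close to the median and replicate 2 at -0.03 as deposited. LEA1, whose product pairs with Msl1 on the U2 RNA, had 0.02 and -0.97 on replicates 1 and 4. HSH155 and CUS1, subunits of the SF3b group that clamps the branch point, had 0.47 on replicate 1, and 0.09 and 0.47 on replicates 1 and 4. The 3 genes of the SF3a group did not agree among themselves. PRP9 (YDL030W) had -1.66 and -1.21 on replicates 1 and 4, PRP11 (YDL043C) -2.09 on replicate 1, and PRP21 (YJL203W) 0.40 and 0.83 on replicates 1 and 3. Run-centred, PRP9 had 0.13 on replicate 1 and -1.62 on replicate 4, which ends its shared direction.

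Tri-snRNP genes covered the widest range of the snRNP-specific group, from -2.96 to 4.53. Their medians were -0.10, -0.88, 0.55 and -0.87 on replicates 1 to 4 (11, 1, 4 and 4 genes), with a mean of -0.33 ± 0.69 (SD, n = 4 arrays). PRP8 (YHR165C), which encodes the scaffold around the catalytic centre, had 0.42 on replicate 1 and -0.69 on replicate 3. Run-centred, PRP8 lay above the median on both arrays, at 0.26 and 0.23. BRR2 (YER172C), the helicase that unwinds U4 from U6, had -0.10 on replicate 1 and 2.09 on replicate 4, and the latter became 0.39 when run-centred because its run of spots had a median 1.67 above that of the array. SNU114 (YKL173W), a GTPase of U5, had -0.73 and -1.38 on replicates 1 and 3. These 3 central U5 genes thus had no common direction.

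PRP3 (YDR473C), a U4/U6 protein gene, was the lowest tri-snRNP member on both of its arrays and the lowest of all members on replicate 4, with -2.48 on replicate 1 (181st lowest of 4409 genes) and -2.96 on replicate 4 (47th lowest of 2421). Its mean was -2.72 ± 0.34 (SD, n = 2 arrays), or 6.59-fold below the array median. On replicate 1 it lies in the same run of 400 spots as PRP9, PRP28 and PRP42, and that run had a median 1.81 below that of the array. Run-centred, PRP3 had -0.69 and -2.26. Its partner PRP4 (YPR178W) had 1.79 on replicate 3, the mean of spots at 3.92 and -0.34. PRP6 (YBR055C), which bridges U5 to U4/U6, had -1.68 and -0.76 on replicates 1 and 4. PRP31 (YGR091W) had 0.29, -0.88 and -0.99 on replicates 1, 2 and 4, a mean of -0.53 ± 0.71 (SD, n = 3). Its value on replicate 1 is the mean of spots at 1.63 and -1.05. As deposited its replicate 2 value was 0.88, which turned it from the lowest to the highest member of that array and its mean to 0.06.

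SNU66 (YOR308C) was the highest member on replicate 3, at 4.53 or 23.1-fold above the array median, from 2 spots with an SD of 0.35, and stood 18th of 2280 genes. It had 0.70 on replicate 1. Its run of spots on replicate 3 had a median 2.13 above that of the array and it had 2.41 when run-centred. SNU23 (YDL098C) had 3.36 on replicate 1 and 4.53 when run-centred, with no second array. PRP24, PRP38 and SNU13 had -0.95, 0.60 and -0.45 on replicate 1, the one array that measured them. The last of these also encodes a protein of the box C/D particles that guide ribosomal RNA modification.

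The PRP helicase genes were measured on 3 arrays and their class median changed side between them. It was -0.50 on replicate 1 (6 genes), 1.30 on replicate 3 (PRP5 alone) and -1.31 on replicate 4 (3 genes), a mean of -0.17 ± 1.34 (SD, n = 3 arrays). PRP5 (YBR237W), which acts when U2 joins, had -0.52 on replicate 1 and 1.30 on replicate 3. Run-centred, PRP5 lay above the median on both arrays, at 0.60 and 0.28. PRP28 (YDR243C), which displaces U1 from the 5′ splice site, was the lowest member of replicate 1 at -3.57, the 23rd lowest of 4409 genes, and had -0.88 on replicate 4. Run-centred it had -1.78 and -1.04. PRP16 (YKR086W), which acts between the catalytic steps, had -0.91 and -1.31 on replicates 1 and 4.

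PRP43 (YGL120C), which takes the spent spliceosome apart and also works in ribosome assembly, had 0.44 on replicate 1 and -1.86 on replicate 4. PRP2 (YNR011C), which triggers the first step, and PRP22 (YER013W), which releases the spliced mRNA, had 1.73 and -0.49 on replicate 1, their one array. All 3 helicase genes with a value on replicate 4 were below the array median. The 6 genes on replicate 1 ranged from -3.57 to 1.73, so the helicases varied among themselves more than their median differed from 0.

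Set side by side, the classes differed by less than the arrays did. The Sm and Lsm genes together had medians of -0.54, 1.11, -0.32 and 1.68 on replicates 1 to 4 (8, 2, 6 and 1 genes), a mean of 0.48 ± 1.08 (SD, n = 4 arrays), and of -0.07 ± 1.21 with replicate 2 as deposited. All snRNP-specific genes together had -0.04, -0.43, -0.69 and -0.76 (24, 2, 9 and 9 genes), a mean of -0.48 ± 0.32 (SD, n = 4 arrays). Of these wider classes it alone was below 0 on each of the 4 arrays, which does not hold with replicate 2 as deposited, where its median there was 0.43 and its mean -0.26. Its run-centred medians were -0.23, -0.21, 0.23 and -0.35, with a mean of -0.14. Without any centring of arrays the mean of its 4 medians was 0.29.

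The difference of class medians, Sm and Lsm minus snRNP-specific, was -0.50, 1.54, 0.37 and 2.43 on replicates 1 to 4, a mean of 0.96 ± 1.29 (SD, n = 4 arrays). As deposited, replicate 2 gave -1.54 and the mean was 0.19 ± 1.69. The largest of these, on replicate 4, rests on LSM5 alone. Helicases minus snRNP-specific genes gave -0.46, 1.99 and -0.56 on replicates 1, 3 and 4, a mean of 0.32 ± 1.44 (SD, n = 3 arrays), which became -0.28 ± 0.38 when run-centred. Sm and Lsm minus helicases gave -0.04, -1.62 and 2.99, a mean of 0.45 ± 2.34 (SD, n = 3 arrays). Each mean is smaller than its SD, and no difference held its sign on every array. No p-value is given for these medians, since genes of a class are not replicates.

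**Figure D3:**
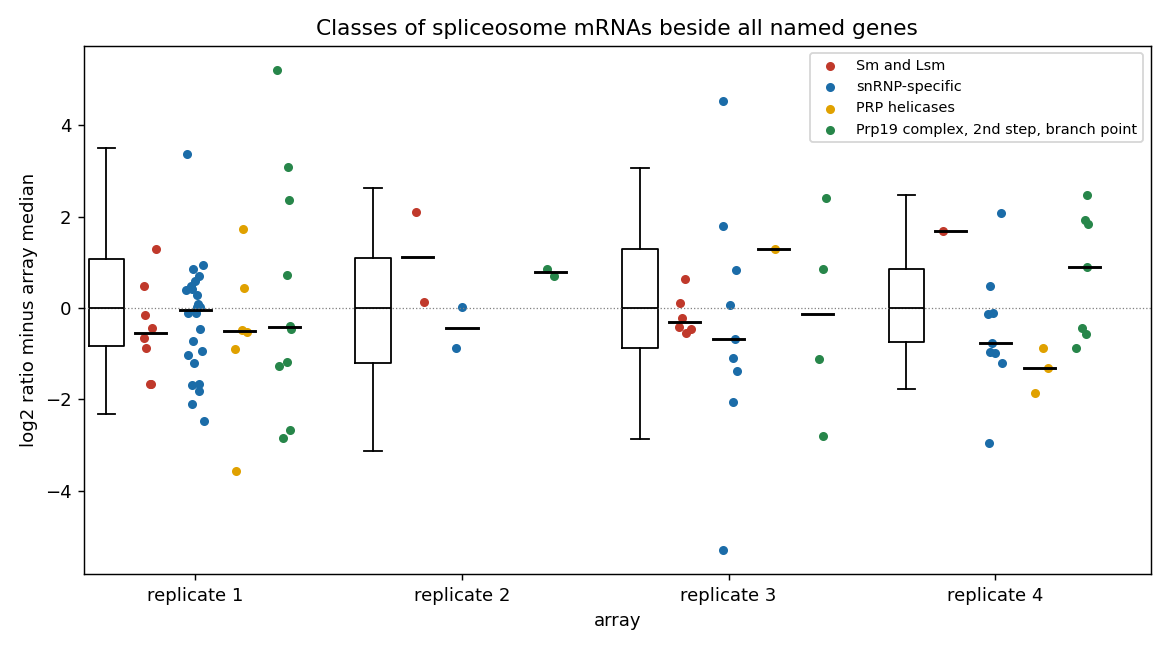
Log2 ratio minus the array median of spliceosome genes (dots, coloured by class) with the class median as a black bar, for each array; the boxes show all named genes of the array (quartiles, whiskers from the 5th to the 95th percentile). The snRNP-specific bar lies at or below 0 on every array, from -0.04 to -0.76, while the other bars change side; replicate 2 is drawn with its sign turned, and as deposited its snRNP-specific bar would be at 0.43.

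Genes of the Prp19 complex and its partners were split evenly around the array median. Their medians were -0.78, 0.78, -1.11 and 0.89 on replicates 1 to 4 (8, 2, 3 and 5 genes), and 9 of 18 values lay on each side, or 7 above and 11 below with replicate 2 as deposited. CWC21 (YDR482C), which encodes a small partner of Prp8 near the catalytic centre, is the one member measured on every array, with -2.84, 0.86, 2.40 and 0.89. Replicate 1 set it far below the other 3, the 95th lowest of 4409 genes, and the mean over 4 arrays was 0.33 ± 2.23 (SD, n = 4), or -0.10 with replicate 2 as deposited. Its 2 spots on replicate 3 were at 1.02 and 3.78, and its run-centred values were -1.67, 1.43, 0.28 and 1.15.

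CLF1 (YLR117C), a scaffold protein gene of the complex, had -0.38, 0.70 and 1.92 on replicates 1, 2 and 4, a mean of 0.74 ± 1.15 (SD, n = 3), or 0.28 with replicate 2 as deposited. ISY1 (YJR050W) had 0.73 and 1.85 on replicates 1 and 4 and was above the median on both. CEF1 (YMR213W), which binds near the U6 and U2 RNAs in the catalytic core, had -1.28 and -1.11 on replicates 1 and 3, a mean of -1.19 ± 0.12 (SD, n = 2 arrays), or 2.29-fold below the median. CWC2 (YDL209C), an RNA-binding component, had -2.67 and -0.88 on replicates 1 and 4.

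PRP19 (YLL036C), the ubiquitin ligase that names the complex, had 3.08 on replicate 1, the mean of spots at 4.12 and 2.05. PRP45 (YAL032C) had 2.35 and -0.44 on replicates 1 and 4, opposite sides. SYF1 had -1.17 on replicate 1 and PRP46 -2.80 on replicate 3, the latter from 1 spot. Within this one complex, values on replicate 1 thus ran from -2.84 to 3.08.

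MSL5 (YLR116W), the gene of the protein that recognises the branch point sequence, had the highest ratio of all members on both arrays that measured it. It had 5.21 on replicate 1, the 7th highest of 4409 genes, from 1 spot, and 2.47 on replicate 4, the 122nd highest of 2421 genes, from 2 spots at 2.98 and 1.96. The mean was 3.84 ± 1.93 (SD, n = 2 arrays), or 14.3-fold above the array median. On replicate 4 its run of spots, which also holds BRR2, had a median 1.67 above that of the array, and the run-centred values were 5.23 and 0.78. It therefore stayed above the median on both arrays but was past 2-fold on replicate 1 alone once runs were centred. MUD2 (YKL074C), whose product binds next to Msl5 on the intron, had 0.85 on replicate 3 and -0.17 run-centred. PRP18 (YGR006W), a second-step factor gene, had -0.46 and -0.57 on replicates 1 and 4, and its partner SLU7 had no value. The replicate 1 value of PRP18 is the mean of spots at 0.50 and -1.42, on opposite sides of the median.

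**Figure D4:**
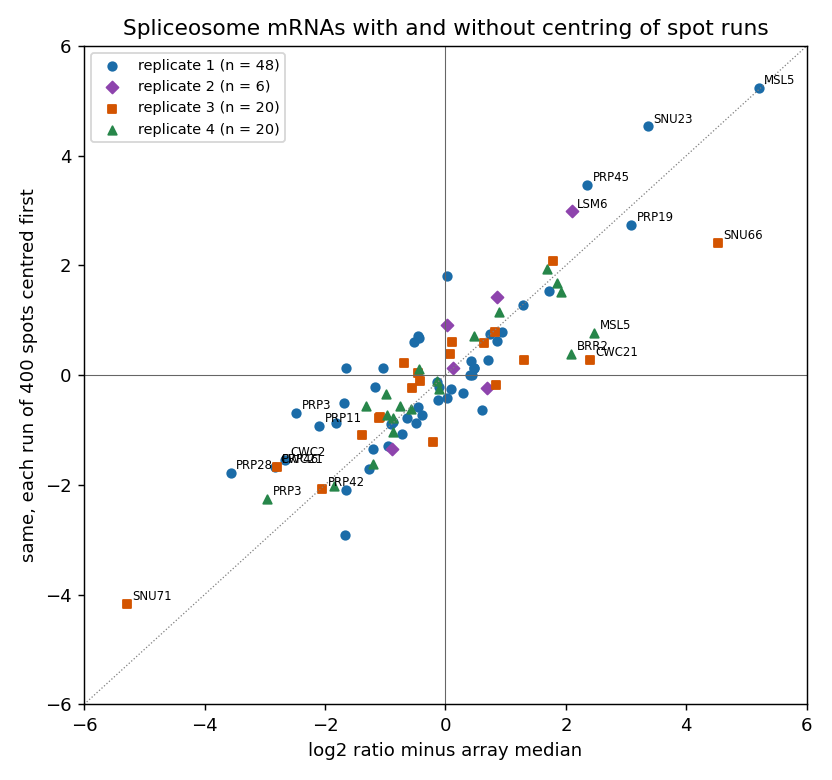
Log2 ratio minus the array median of each member on each array (horizontal axis) against the same value after every run of 400 neighbouring spots was centred (vertical axis); the dotted line marks equal values. MSL5 on replicate 1 stays near 5.2, while MSL5 and BRR2 on replicate 4 and SNU66 and CWC21 on replicate 3 move toward 0.

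Among the 31 members with a value on at least 2 arrays, 6 (19.4%) were above the array median on every array that measured them and 11 (35.5%) were below, where 21.1% and 21.9% of the 3288 such genes were. The other 14 changed side. With replicate 2 as deposited 5 were above and 13 below, beside 21.1% and 22.3% of all genes. At 2-fold or more on each of its arrays, 1 member was higher, MSL5, and 3 were lower, PRP3, PRP9 and CEF1. These counts are 3.23% and 9.68% of the 31, beside 5.35% and 3.68% of all genes. Run-centred, no member was 2-fold higher on each array and SNU114 and PRP28 were the 2 lower ones, in place of the 3 above. The 2-fold counts over all genes were made without run centring only. The lower count was 0 without replicate 1 and 1 without replicate 4, and the higher count was 0 without either of these, since each of the 4 members was measured on 2 arrays.

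On the pairs of replicate 1 with replicates 3 and 4, members paired across arrays about as loosely as all genes did. On replicates 1 and 3, 6 of 13 members (46.2%) lay on opposite sides of the median, beside 48.4% of 1777 genes. On replicates 1 and 4 this was 8 of 19 members (42.1%), beside 47.4% of 1912 genes. Over the 13 members of replicates 1 and 3 Pearson's r was -0.19 and Spearman's rho -0.12, beside an r of 0.060 over all genes. Over the 19 members of replicates 1 and 4 r was 0.47 and rho 0.29, which became 0.25 and 0.17 over 18 members without MSL5, beside an r of 0.084 over all genes. Replicates 1 and 2 shared 5 members, of which 4 lay on opposite sides, beside 50.9% of 442 genes. Within the second platform, r over all genes was -0.018 on replicates 3 and 4 (923 genes) and 0.012 on replicates 2 and 3 (222 genes). It was -0.11 on replicates 2 and 4 (337 genes), with the sign of replicate 2 turned. These are correlations across genes of single arrays, described with no test. The 7 members with 2 spots on replicate 1 had a median spot SD of 1.36, beside 0.57 for the 693 such genes, and on replicates 3 and 4 the medians were 0.30 (19 members) and 0.52 (11 members), beside 0.34 and 0.29. The same member differed between arrays by a median of 1.24 on replicates 1 and 3 and 1.28 on replicates 1 and 4, beside 1.51 and 1.35 for all genes.

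**Figure D5:**
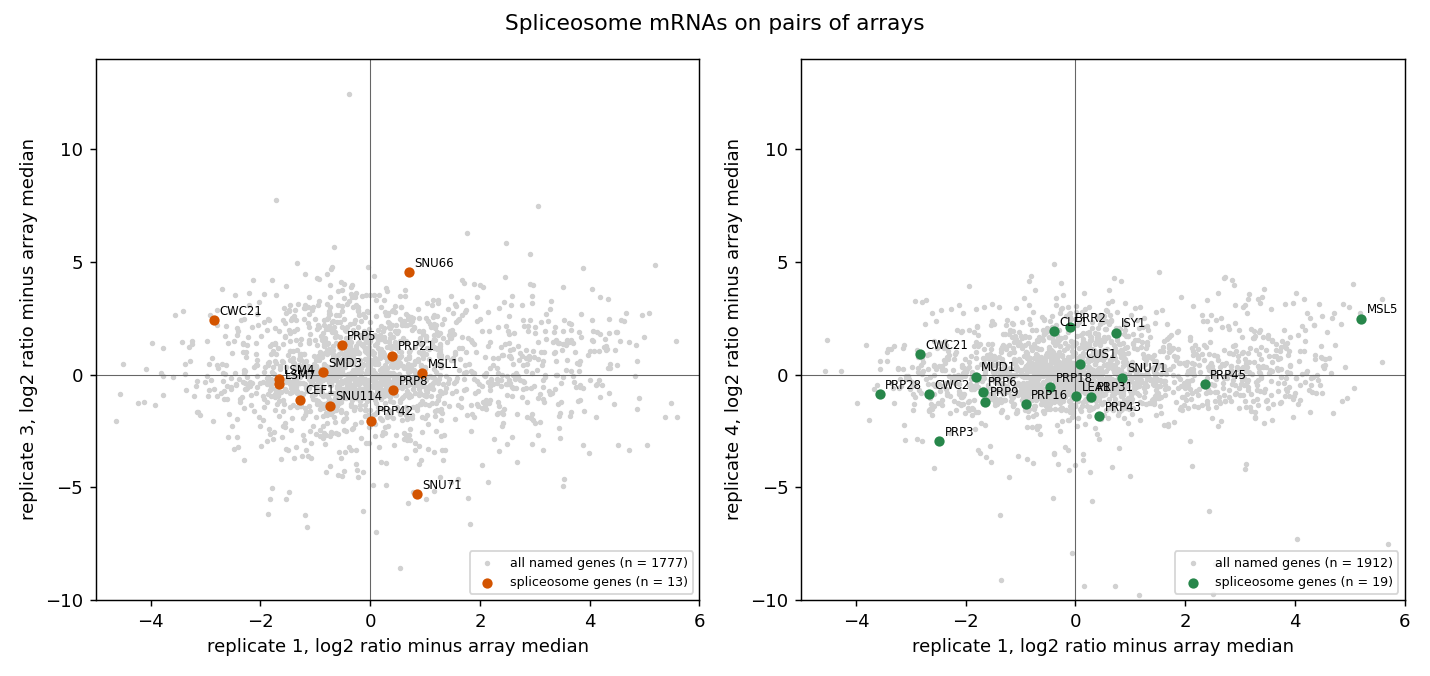
Log2 ratio minus the array median on replicate 1 (horizontal axes) against replicate 3 (left) and replicate 4 (right), for members (coloured, named) and all genes measured on both arrays (grey). Members scatter over all 4 quadrants, with PRP3 in the lower left and MSL5 in the upper right of the right panel.

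No member passed the test against the array median. Limma was fitted to the 1212 genes with a value on at least 2 of the 3 arrays of the second platform, and called 0 genes (0%) at an adjusted p under 0.05, with 57 genes (4.70%) at an unadjusted p under 0.05. Of the 7 members tested, 4 had a mean above 0 and 3 below. SNU71, at -2.72 (SE 1.27) over replicates 3 and 4, was the one with an unadjusted p under 0.05 (limma's adjusted p = 0.959), and it rests on the 1 low spot described above. Its values on these arrays, -5.30 and -0.13, lay far apart. Limma gave each member with 2 values the same SE of 1.27, a spread pooled over genes. That SE and its p therefore do not measure how far the 2 arrays of a single gene differed. CWC21 had a mean of 1.38 (SE 1.04) over 3 arrays and CLF1 1.31 (SE 1.27) over 2, with adjusted p = 0.998 in limma for each of the 6 other members.

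When all 4 arrays were joined by gene, a combination of the 2 platforms chosen after the data were seen, 31 members entered limma and again 0 of them and 0 of 3288 genes (0%) were called. There 221 genes (6.72%) had an unadjusted p under 0.05, and so did 3 members. They were MSL5 at 3.84 (SE 1.07), PRP3 at -2.72 (SE 1.01) and SNU66 at 2.61 (SE 1.13), with adjusted p = 0.620, 0.670 and 0.710 in limma. Of the 31 means 12 were above 0 and 19 below, with a median of -0.52, beside 0.10 for all genes tested.

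Other splicing genes outside the 60 also gave values on both sides of the array median. Of a list of 38, 37 were printed and 15 had a value on at least 2 arrays. Limma called 0 of the 4 tested on the second platform and 0 of the 15 on all 4 arrays, where 2 had an unadjusted p under 0.05. Their medians were -0.29, -0.41, 0.21 and 0.36 on replicates 1 to 4 (23, 2, 14 and 12 genes), with a mean of -0.03 ± 0.37 (SD, n = 4 arrays). No gene of the list had one sign on 3 arrays. Of the 15, 2 (13.3%) were 2-fold or more higher on each of their arrays and 0 were lower, beside 5.35% and 3.68% of all genes. These 2, named after their values were seen, were CBC2 (YPL178W) and MER1 (YNL210W). CBC2, for a subunit of the nuclear cap-binding complex, had 1.95 and 2.37 on replicates 1 and 3. The latter is the mean of spots at 1.30 and 3.44. MER1, a meiotic splicing activator gene, had 4.31 and 1.13 on the same arrays, each from 1 spot. PRP38 and SMD1 are neighbouring genes on the chromosome, as are MSL5 and CLF1, and the members of each pair had opposite signs on replicate 1, 0.60 and -0.65, and 5.21 and -0.38.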

How the data were processed

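Each deposited value is a log10 ratio between the channels of a spot, computed by the authors. The sources used here name no background correction, normalization or scanner setting. Base 10 was inferred because it gave a simple fraction (denominator up to 50, relative tolerance 2e-08) more often than base 2 did. The share of spots was 0.276% to 15.6% by array, beside at most 0.130% with base 2. It was lowest on replicate 1, where the inference is weakest. Of the printed spots, 75.5%, 7.84%, 36.0% and 35.1% carried a value on the 4 arrays. No intensities are in the files, so precision is limited by the number of arrays and spots. The medians over spots were 0.386, -0.163, -0.251 and 0.643 in log10 units, so arrays were not on a common level before centring.

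Values were divided by the log10 of 2, the sign of replicate 2 was turned, spots of a gene were averaged, and each array was centred on its median over genes (Python 3.11.15, pandas 2.3.3). Symbols came from the platform annotation, and those of the members and of the other splicing genes on the arrays were checked by gene identifier against RefSeq (R64). Positions and sequences are not given, since the files name no build and hold no sequences. Slide and scan were slide 1 and scan 1 for replicate 1, 5 and 3 for replicate 2, and 3 and 3 for replicates 3 and 4, so scan number goes with the platform. Limma 3.58.1 (R 4.3.3) was fitted with an intercept over all genes with at least 2 values, a missing array dropping out, with Benjamini-Hochberg adjustment. The fit was also run on simulated ratios to check that it worked. That run does not show that shifts of the size seen here could be found. Class values are described with no test. The members, classes and lists were chosen with earlier results of these data known. Values were named for members measured on 3 or more arrays, past 2-fold on both of 2 arrays, highest or lowest on an array, and for PRP8, BRR2 and MUD2, and every other member with a value is given with its class.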

Additional observations from a re-analysis of the deposited data

How the results depend on the processing

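No member passed limma's test under any of the 14 alternatives, which included replicate 2 as deposited, other centrings, quantile normalization, leaving out replicate 2, 3 or 4, and joining the platforms. Each alternative also called 0 of all genes fitted, so this is not particular to the members. The number of members tested ran from 1, with genes on all 3 arrays of the second platform, to 31 with the platforms joined. Without centring, the class medians averaged over arrays moved from -0.20 to 0.56 for all members, from 0.28 to 1.04 for the Prp19 complex, branch point and second-step genes, and for the snRNP-specific genes from -0.48 to 0.29, with the helicases going from -0.17 to 0.65 and Sm and Lsm from 0.48 to 1.25. All members, snRNP-specific genes and helicases thus changed side, which follows from the uncentred arrays' own medians. With replicate 2 as deposited the average of Sm and Lsm changed side to -0.07 and that of the Prp19 complex, branch point and second-step genes to -0.11, and the average of all members was -0.41. With runs of 400 spots centred the snRNP-specific value was -0.14. The cause was not tested. Leaving out 1 array gave averages from -0.41 to -0.10 for all members, 0.09 to 0.82 for Sm and Lsm, -0.62 to -0.38 for snRNP-specific, -0.91 to 0.40 for helicases and 0.07 to 0.51 for the rest. The count of members 2-fold lower on each array was 3, and 5 with arrays scaled to a common median absolute deviation. With genes on at least 2 spots both counts were 0, since 6 members were left. Leaving out 1 array gave 0 to 3 lower and 0 to 1 higher members, and run centring 0 higher ones. The 2-fold counts over all genes were not made under these alternatives. Without SNU71, an alternative chosen after seeing the data, the averages were -0.20 for all members and -0.43 for snRNP-specific genes, and with BRR2 counted as a helicase the helicase average was -0.09. Among single members, the mean of SNU71 was -2.72 without replicate 1 and 0.36 without replicate 3, and that of CWC21 ran from -0.36 to 1.38 when 1 array was left out. The mean of LSM6 was -1.32 with replicate 2 as deposited. No paired analysis was possible because the arrays form 1 group.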
